A study of Homo sapiens with 14 samples.

Results

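The replication-dependent histone gene clusters were examined in RNA of HEK293T cells, either wild type or lacking SETD2. HEK293T is a fast-growing human line of embryonic kidney origin that expresses the large T antigen of the virus SV40. Members were all transcripts whose hg19 locus lay within 6:26017000-26285800 (the first chromosome 6 cluster), 6:27775000-27861700 (the second chromosome 6 cluster) or 1:149754000-149860000 (the chromosome 1 cluster). The locus of HFE, an iron regulator embedded in the first cluster, was left out. This gave 93 of 204092 transcripts at 64 of 35671 loci: 36 loci in the first chromosome 6 cluster, 16 in the second and 12 in the chromosome 1 cluster. A locus is a stretch of the genome whose overlapping transcripts the authors' files give the same position.

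The labels list 3 RNA libraries of wild type HEK293T cells and 3 of HEK293T cells with a SETD2 knockout, grown alike, with no other treatment given. The sources used here do not say whether the knockout line was 1 clone or whether the libraries came from separate cultures. RNA was depleted of ribosomal RNA rather than selected for poly(A) tails, per the labels' protocols, although the label of 1 wild type library carries a ChIP protocol instead. The deposited RNA values were 1 FPKM value per transcript and group (a fragment count divided by transcript length and by the mapped fragments of the library). No value was given for a single library, so neither the depth of a library nor the spread between replicates is known.

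Replication-dependent histone genes encode the core histones H2A, H2B, H3 and H4, which form the nucleosome, and the linker histone H1, which binds the DNA between nucleosomes. They are transcribed mainly in S phase, when new DNA has to be packaged, and most are short genes without introns. Their mRNA ends in a conserved stem-loop instead of a poly(A) tail, which the stem-loop binding protein SLBP recognises, so libraries made from poly(A) RNA largely miss it. SETD2 is a methyltransferase whose substrate is histone H3 on transcribed genes, so the H3 genes among these clusters encode the protein that the knocked-out enzyme modifies.

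In RefSeq (assembly GRCh38.p14) the run of histone genes around HFE held 32 genes from H1-1 to H4C8: 5 for H1, 4 for H2A, 8 for H2B, 7 for H3 and 8 for H4. A second run on the same chromosome, from H2BC13 to H2BC17, held 16 genes (1 for H1, 5 for H2A, 4 for H2B, 3 for H3 and 3 for H4). The run on chromosome 1, from H2BC18 to H2AC21, held 11 genes (4 for H2A, 2 for H2B, 3 for H3 and 2 for H4). The authors' tables name transcripts by Ensembl ID only, and 0 of the 204092 IDs matched a gene name in the tables used here. The assemblies also differ, so single loci were not paired with single genes and are given by hg19 position. Since no member was paired with a symbol, the level of SETD2 and those of histone processing factors such as SLBP and NPAT were not analysed here, and no promoter or protein sequence was assigned to a locus.

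The structure of the loci could be set against the label without names. Of the 64 loci, 53 held a single transcript, with a median locus length of 467 bases, and 46 of these were 340 to 800 bases long, the size of a short gene with no intron. The other 11 loci held several transcripts and were 2454 to 29702 bases long. The rule also took in stretches that are not of that size, the longest being the locus at 1:149754227-149783928 with 10 transcripts.

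Histone cluster RNA was measurable in both groups, with a lower median over its expressed loci than over all expressed loci. A locus was counted as expressed when the FPKM of its transcripts summed to at least 1 in a group, which 33 of the 64 loci did. At least 1 FPKM was listed for 32 loci in knockout cells and for 32 in wild type cells, and at least 10 FPKM for 10 and 8 loci. The median over the 33 expressed loci was 6.38 FPKM in knockout cells and 7.38 FPKM in wild type cells. Over all 12596 expressed loci outside the mitochondrial chromosome the medians were 16.6 and 15.5 FPKM, and over 1198 expressed other loci with a single transcript of 350 to 3000 bases they were 3.99 and 3.95 FPKM. Expressed loci made up 51.6% of the members and 35.3% of all loci. Among loci with a single transcript they made up 24 of 53 members (45.3%) and 14.1% of the other short loci. These shares are descriptions, since members of a cluster are neighbours and not independent draws.

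Summed over its loci, the first chromosome 6 cluster held 225.5 FPKM in knockout cells and 200.03 FPKM in wild type cells, a ratio of 1.13. The second chromosome 6 cluster held 52.9 and 55.8 FPKM (ratio 0.947), and the chromosome 1 cluster 21.005 and 22.6 FPKM (ratio 0.930). All 64 loci together held 299.4 FPKM in knockout cells and 278.4 FPKM in wild type cells, a ratio of 1.08. These sums have no error, since the files hold no replicate values, and the differences could not be tested. In bulk RNA a change in the number of cells in S phase and a change in histone RNA per cell cannot be told apart.

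The authors deposited the knockout values in 2 tables that differ, the table of tests used above and an FPKM tracking table, and the direction of 2 of the 3 sums depended on which was read. In the tracking table the first chromosome 6 cluster stood at 258.2 FPKM in knockout cells against 195.3 FPKM in wild type cells (ratio 1.32). The second stood at 68.7 against 54.5 FPKM (ratio 1.26), and the chromosome 1 cluster at 26.1 against 22.1 FPKM (ratio 1.18). The ratio over all 64 loci was 1.30. The wild type barely moved between the tables: over 35 member loci of at least 0.5 FPKM the tracking value was 0.975 to 0.977 times the test-table value. The knockout value moved more: over the 35 member loci of at least 0.5 FPKM in knockout cells, which are not all the same loci, it was 0.652 to 2.06 times the test-table value, with a median of 1.17. The median over 13073 loci of all kinds was 0.962. The sources used here do not give which knockout libraries entered either table. The plot of cluster sums shows both tables side by side.

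**Figure D1:**
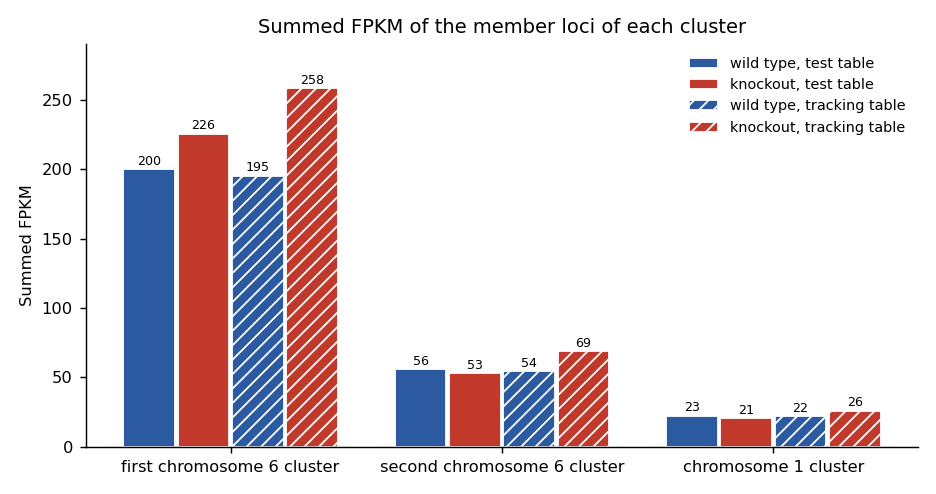
Summed FPKM of the member loci of each cluster (vertical axis, from 0) in wild type (blue) and SETD2 knockout (red), from the test table (plain bars) and the tracking table (hatched bars). The knockout bar is the higher one in the first chromosome 6 cluster in both tables, and in the other clusters only in the tracking table. The bars are group values without replicates and carry no error.

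No member passed the authors' test. Of the 93 transcripts, 51 had been tested, and 0 had a q-value under 0.05 in the authors' deposited table, where 0.255% of all 85852 tested transcripts did. An unadjusted p under 0.05 was listed for 5 of the 51 (9.80%), against 2.38% of all tested transcripts. Of these 5, 3 were higher in knockout cells (0.817% of all tested transcripts) and 2 lower (1.57%). The smallest q-value of a member was 0.0660, and the other 50 shared a q of 0.991. A q that misses the threshold does not show that levels were equal. The deposited intervals of the groups overlapped for all tested members but 1, and 0.632% of all tested transcripts had intervals that did not overlap. The level of these intervals is not given in the file.

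Over the 33 expressed loci the median log2 ratio of knockout to wild type was 0.038, with quartiles of -0.32 and 0.32, and 18 loci were higher and 15 lower in knockout cells. Over all 12443 loci with a ratio the median was 0.06, with quartiles of -0.24 and 0.34, and 56.1% were higher. Of the 33 members, 27 (81.8%) lay within 1.5-fold, and 75.8% of all loci did. The tracking table gave the opposite order, with 22 of the 33 members (66.7%) and 78.9% of all loci within 1.5-fold. By the tracking table, 27 of the 33 members were higher in knockout cells (81.8%) and the median log2 ratio was 0.43, while 58.6% of all loci were higher and their median was 0.08. The 9 loci that changed direction between the tables all went from lower to higher in knockout cells. Another 18 were higher in both tables and 6 lower in both. A change of direction between the tables occurred for 27.3% of the members and for 16.4% of 12305 loci of all kinds.

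**Figure D2:**
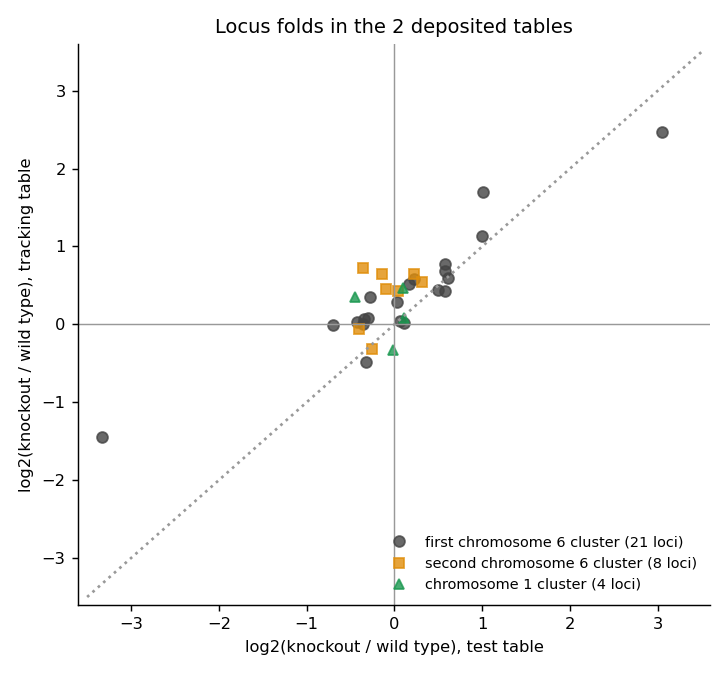
Log2 ratio of knockout to wild type for the 33 expressed member loci in the test table (horizontal axis) and the tracking table (vertical axis), by cluster; the dotted line marks equal values. The 9 loci in the upper left part were lower in knockout cells in the test table and higher in the tracking table, and the lower right part is empty.

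The most abundant locus by mean level of both groups was 6:26055968-26056699, which holds the single transcript ENST00000343677. It stood at 26.3 FPKM in knockout cells and 33.5 FPKM in wild type cells in the authors' deposited table, a ratio of 0.786 with p = 0.157. In the tracking table the knockout value was 34.5 FPKM (interval 20.8 to 48.1) and the wild type value 32.7 FPKM (20.2 to 45.2), so the groups overlapped almost fully and the order was the opposite one. This is the locus just before HFE in the files. The HFE locus itself, 6:26087509-26098571 with 14 transcripts, was listed at 0 in knockout cells and at 0.131 FPKM in wild type cells, and the next histone cluster locus, 6:26104104-26104518, stood at 4.54 and 7.38 FPKM. Neighbouring genes of the same stretch thus differed widely in level in both groups.

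Next in mean level was 6:26158349-26171577, a locus of 13229 bases and 3 transcripts, with 31.5 FPKM in knockout cells and 28.0 FPKM in wild type cells. Its transcript ENST00000377777 made up 97.1% of the knockout sum and 90.2% of the wild type sum. The intervals of that transcript, from the tracking table, were 22.0 to 54.2 FPKM around 38.1 FPKM in knockout cells. In wild type cells they were 12.9 to 36.3 FPKM around 24.6 FPKM. At 6:26027124-26027480, a single-transcript locus of 357 bases, the values were 29.4 and 20.8 FPKM, a ratio of 1.41. Its tracking-table values were 27.7 FPKM (interval 14.2 to 41.1) and 20.3 FPKM (9.78 to 30.9). At 6:26156559-26157343, of 785 bases, the test-table values were 19.3 and 16.5 FPKM (ratio 1.17). These 4 loci held 47.2% of the sum of the first cluster in knockout cells and 49.4% in wild type cells. In the wild type they lay between the 51.5 and the 66.7 percentile of all expressed loci, so that even the most abundant members were near the middle of the range.

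In the second chromosome 6 cluster the highest level was at 6:27858093-27860963, where 3 transcripts summed to 13.6 FPKM in knockout cells and 14.5 FPKM in wild type cells. The single-transcript locus 6:27777842-27778314 followed with 11.9 and 11.6 FPKM (ratio 1.03). Next in mean level were 6:27806323-27823487, a locus of 17165 bases with 7.31 and 8.72 FPKM, and 6:27861203-27861669 with 6.63 and 8.74 FPKM. The last of these had the lowest difference of knockout minus wild type among the expressed loci of the cluster on the log2(FPKM + 1) scale, with a ratio of 0.758, and 6:27775899-27776429 had the highest among them, with 3.03 FPKM in knockout and 2.44 FPKM in wild type cells. All 8 expressed loci of this cluster lay within 1.5-fold in the test table, against 5 of 8 in the tracking table.

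The chromosome 1 cluster had 4 expressed loci among 12, and they held 95.3% of its sum in knockout cells and 95.7% in wild type cells. The highest was 1:149858525-149858961, where the single transcript ENST00000331380 stood at 6.38 FPKM in knockout cells and 8.68 FPKM in wild type cells (ratio 0.735). In the tracking table the knockout value was 10.8 FPKM (interval 4.42 to 17.1) against 8.48 FPKM (3.55 to 13.4), which turns the direction. Its neighbour 1:149856010-149858232 stood at 3.44 and 3.17 FPKM. The long locus 1:149754227-149783928 held 7.10 and 6.62 FPKM, nearly all of it from ENST00000369167 and with the highest difference among the expressed loci of the cluster on the log2(FPKM + 1) scale, and 1:149816065-149820591 held 3.10 and 3.14 FPKM. Without the highest locus the ratio of this cluster went from below 1 to above it (log2 ratio of 0.072 against -0.11). A locus that crosses the edge of the window, 1:149859019-149872351, was not counted by the rule. It held 23.9 FPKM in knockout cells and 21.8 FPKM in wild type cells, close to the sums of all loci inside the window, and with it the log2 ratio of the cluster was 0.019.

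**Figure D3:**
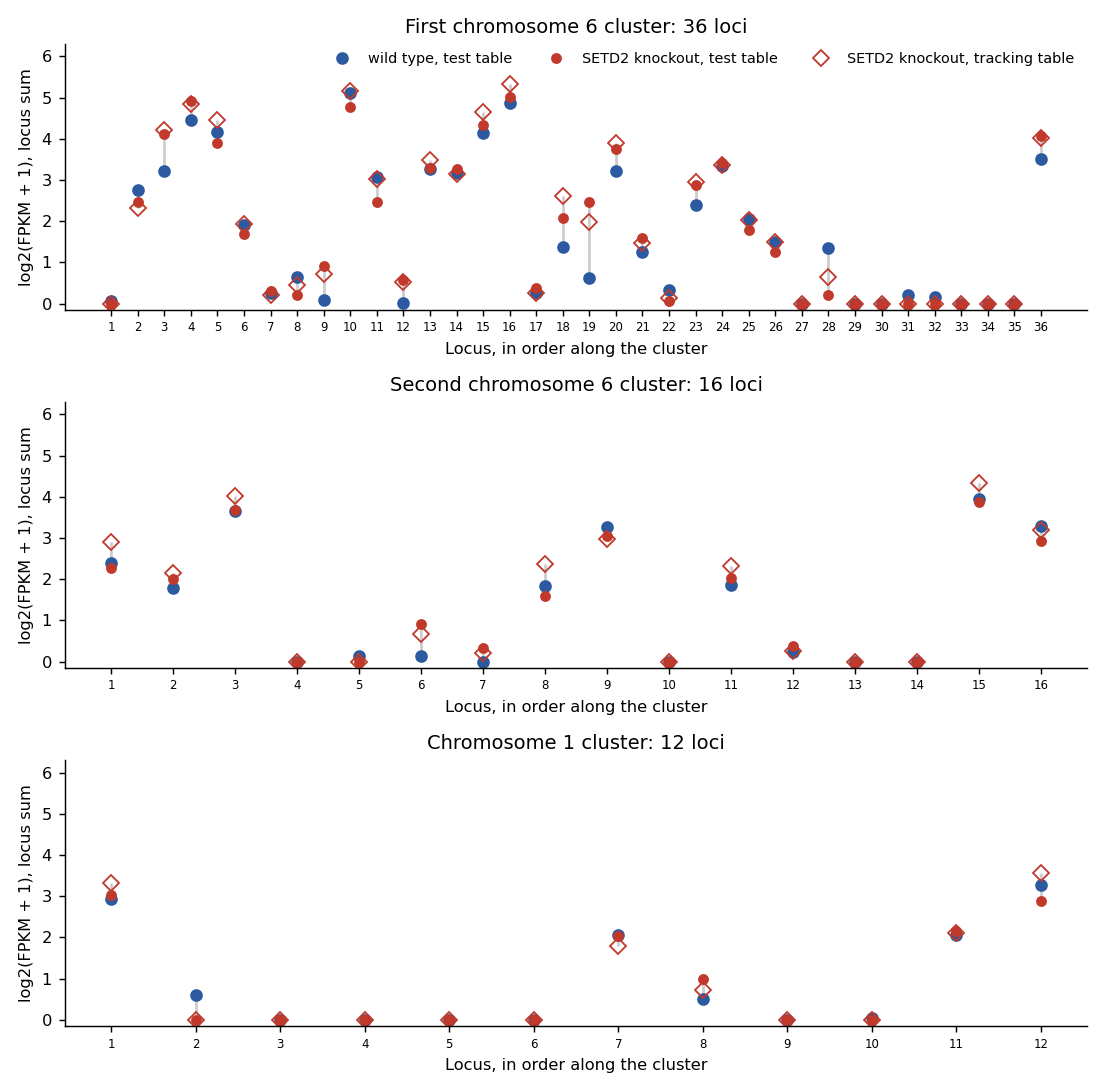
Locus sums on the log2(FPKM + 1) scale (vertical axis) for all 64 member loci in their order along each cluster (horizontal axis): wild type (blue circles) and SETD2 knockout (red circles) from the test table, and knockout from the tracking table (open diamonds). Expressed loci alternate with stretches under 1 FPKM, and the same stretches are low in both groups.

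Levels were ordered alike in both groups. Across the 64 loci, which share the libraries and in part reads of similar sequence, the Spearman correlation of knockout and wild type levels was 0.943, and across the 33 expressed loci 0.914. It was 0.958 across all 12596 expressed loci. Of the 64 loci, 31 stayed under 1 FPKM in both groups, and 15 of these were listed at 0 in both. Since the depth is unknown, no limit can be given for a listed 0.

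Many of the low loci lay in runs of at least 3 neighbours, of which some are given here. Whether such runs exceed those of a random order was not tested. In the first chromosome 6 cluster the 7 consecutive loci from 6:26240561 to 26273622 were all listed at 0 in knockout cells and did not exceed 0.145 FPKM in wild type cells. The locus that follows, 6:26281283-26285762, stood at 15.8 FPKM in knockout cells and 10.4 FPKM in wild type cells. In the second cluster the 4 loci from 27782112 to 27799305 stayed at or under 0.900 FPKM in knockout cells and 0.0940 FPKM in wild type cells. On chromosome 1 the 5 loci from 149784826 to 149815100 were listed at 0 in knockout cells, and 4 of them at 0 in wild type cells. These include the long locus 1:149804221-149812765, whose 5 transcripts were all at 0. A further 3 loci, from 149821760 to 149832714, stayed at or under 0.990 and 0.430 FPKM. The last of them, 1:149824181-149832714 with 4 transcripts, was listed at 0 in knockout cells and at 0.0233 FPKM in wild type cells. The human histone cluster on chromosome 1 is known for a duplicated stretch with near-identical copies of H2A, H3 and H4 genes. Reads from such copies cannot be assigned to 1 of them, and the sources used here do not say how the authors' counting treated them, so values at 0 there are uncertain and their part in the low sum was not tested.

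Close neighbours were compared because H2A and H2B genes often lie head to head and share the stretch between them. Of the 23 pairs of adjacent loci at most 1000 bases apart, both were expressed in 8, neither in 10 and 1 of the pair in 5. Among the 8 pairs with both expressed, the wild type levels of the neighbours differed by 1.08-fold to 6.10-fold, with a median of 2.24-fold. The closest levels were at 6:26115101-26124154 and 6:26124373-26139344, which stood at 8.77 and 8.55 FPKM in knockout cells and at 8.57 and 7.94 FPKM in wild type cells. The pair that differed most was 6:26197068-26199521 with 12.4 FPKM and 6:26199748-26200942 with 2.02 FPKM in knockout cells, against 8.30 and 1.36 FPKM in wild type cells. Neighbour ratios in this pair were close in both groups, 6.13 in knockout cells and 6.10 in wild type cells. Other pairs moved more between the groups, in either direction. At 6:26020718-26021186 and 6:26021907-26022278 the neighbours differed 3.61-fold in knockout cells and 1.44-fold in wild type cells. For 1:149856010-149858232 and 1:149858525-149858961 the difference was 1.86-fold in knockout cells and 2.74-fold in wild type cells. At 6:26216428-26216872 and 6:26217165-26217711 the neighbours stood at 9.56 and 2.44 FPKM in knockout cells and at 9.17 and 3.13 FPKM in wild type cells.

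The single-transcript loci were also read by length, since H4 genes are the shortest and H1 genes the longest of the histone genes; length alone does not name a gene. The 15 loci of at most 420 bases summed to 59.5 FPKM in knockout cells and 39.8 FPKM in wild type cells (ratio 1.496), and 4 of the 5 expressed ones were higher in knockout cells. Among these 4 was 6:26195794-26195999 of 206 bases, with 4.51 FPKM in knockout cells and 0.544 FPKM in wild type cells. That locus counted as expressed through its knockout value alone, so it could only count as higher. The class also held a locus of 134 bases listed at 0 in both groups. Both were shorter than the 340 to 800 bases given above for a short gene with no intron. The 27 loci of 425 to 580 bases summed to 73.5 and 81.9 FPKM (ratio 0.897), with 4 of 13 expressed loci higher. The 11 longer single-transcript loci summed to 58.4 and 60.7 FPKM (ratio 0.963), with 4 of 6 higher, and the 11 loci with several transcripts to 108.1 and 96.1 FPKM (ratio 1.12), with 6 of 9 higher. In the tracking table the 4 ratios were 1.59, 1.20, 1.21 and 1.32 in the same order. The shortest class was thus the highest in ratio in both tables, and both longer classes of single-transcript loci changed direction between them. The difference between classes was not tested.

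Most of the difference in the shortest class lay at a pair of loci. At 6:26021907-26022278 the transcript ENST00000359907 stood at 16.5 FPKM in knockout cells and 8.22 FPKM in wild type cells in the authors' deposited table, a 2.00-fold difference with p = 0.0134 and q = 0.991. Its tracking-table values were 17.7 FPKM (interval 8.25 to 27.1) and 8.03 FPKM (2.71 to 13.3), so the direction held and the intervals overlapped. The other was 6:26027124-26027480, described above. Of these, the first had an unadjusted p under 0.05 and neither passed the q-value.

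The largest ratios were at low loci. On the log2(FPKM + 1) scale the highest difference of knockout minus wild type among expressed loci was at 6:26195794-26195999, a locus of 206 bases whose transcript ENST00000404269 stood at 4.51 FPKM in knockout cells and 0.544 FPKM in wild type cells (8.30-fold, p = 0.256, q = 0.991) in the authors' deposited table. It was the only tested member whose deposited intervals did not overlap. The knockout interval was 1.63 to 4.25 FPKM around a tracking value of 2.94 FPKM, and the wild type interval 0 to 1.21 FPKM. The test-table knockout value of 4.51 FPKM lay above that knockout interval, and the ratio in the tracking table was 5.53. Its knockout tracking value was 0.652 times the test-table value. To 3 digits that was also the lowest such value over 13073 loci of all kinds, and why was not tested. The lowest difference was at 6:26234440-26235216, where ENST00000244534 stood at 0.156 FPKM in knockout and 1.56 FPKM in wild type cells in the authors' deposited table (10.04-fold lower, p = 0.0302, q = 0.991). The tracking table gave 0.563 FPKM for the knockout, 3.61 times the test-table value, and the intervals overlapped (0 to 1.19 against 0.337 to 2.72 FPKM). Each of these loci was under 1 FPKM in a group and counted as expressed through its higher group alone. The direction of each was thus fixed by that filter.

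Of the remaining members with an unadjusted p under 0.05, ENST00000360441 at 6:26204858-26206266 stood at 6.37 FPKM in knockout cells and 4.26 FPKM in wild type cells (1.495-fold, p = 0.0428, q = 0.991) in the authors' deposited table. Its tracking-table values were 6.68 FPKM (interval 3.77 to 9.58) and 4.16 FPKM (2.20 to 6.11). ENST00000338379 at 6:26107640-26108364 stayed under 1 FPKM in both groups, at 0.473 in knockout cells and 0.0161 in wild type cells in the authors' deposited table (p = 0.0476). ENST00000331491 at 1:149784826-149785236 had the smallest p of all members, 0.0002 with q = 0.0660. It was listed at 0 in knockout cells in both tables and at 0.526 FPKM in wild type cells in the test table. Its wild type interval in the tracking table ran from 0 to 1.40 FPKM, around 0.513 FPKM.

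**Figure D4:**
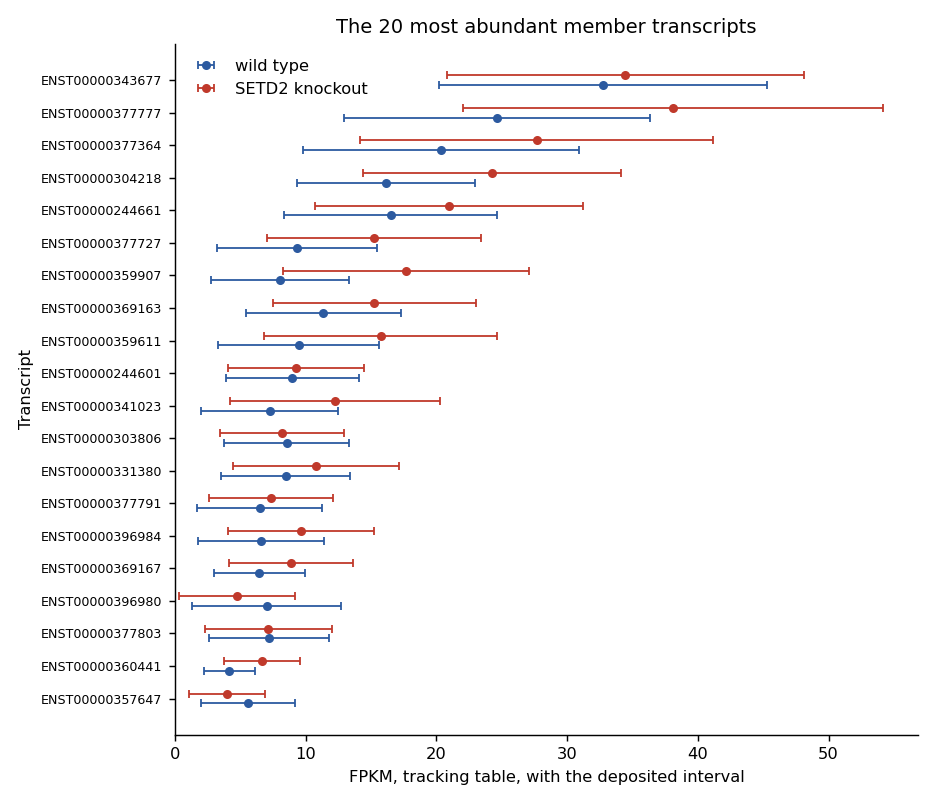
FPKM of the 20 member transcripts with the highest mean level (vertical axis, by Ensembl ID), with the authors' deposited intervals (horizontal axis, tracking table) for wild type (blue) and SETD2 knockout (red). The intervals of the groups overlap for each of these transcripts.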

How the data were processed

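RNA of wild type and SETD2 knockout HEK293T cells was analysed from 3 tables. The 8 ChIP samples were not used here. Per the file headers, the authors deposited 1 FPKM value per transcript and group in a tracking table, with lower and upper bounds, and in a table of tests. The deposited table of tests also lists, per the file headers, log2 of the wild type value divided by the knockout value, the score of the test, its p-value and its q-value. The submitters' processing notes name TopHat, Cuffdiff, Bowtie 1.1.2 and the genome build hg19, but not what each was used for. The annotation and the treatment of reads that match several places are not given in the sources used here. Identical values stood in the tables named for genes and for transcripts.

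FPKM were summed per locus. Ratios are knockout over wild type without a pseudocount, come from the test table except where the tracking table is stated, and were recomputed from the group values. All loci means those outside the mitochondrial chromosome (32 loci left out) without a failed estimate (6 left out). No member had a failed estimate. Starts were raised by 1, since the files are 0-based. No test over libraries was possible, so the authors' q-value at 0.05, adjusted over their whole table, was used as it stood. Where libraries of a group are not separate cultures, that p measures only the spread between libraries.

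The members, lists, comparison sets and alternatives were chosen with earlier results of these data known. Loci were named by rule: per cluster the 4 highest in mean level, the highest and lowest difference of knockout minus wild type on the log2(FPKM + 1) scale among expressed loci, loci with a called transcript (0) and loci longer than 5000 bases. Members with an unadjusted p under 0.05, low stretches, neighbour pairs and the locus at the window edge were named after their values were seen. The functions for sums and medians were checked on generated data with a known shift. Python 3.11.15, pandas 2.3.3, numpy 2.4.6, scipy 1.17.1 and matplotlib 3.10.9 were used.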

Additional observations from a re-analysis of the deposited data

How the results depend on the processing

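The tables hold group values, so leaving out a library could not be computed. No paired analysis was possible because the columns carry no replicate values. Of 53 alternatives, 36 were counted as the same as the value reported, meaning within 0.1 on the log2 scale for a ratio and within 1.5 times for a count. Some of these could not have come out otherwise. No member had a failed estimate, and the only member locus of at most 200 bases was listed at 0 in both groups. No locus at a window edge was added to the first chromosome 6 cluster. Setting the median of all loci to 0 in the test table moved a log2 ratio by 0.060, under the limit of 0.1. At q under 0.01 the count could not exceed the 0 called at 0.05. With the tracking table the log2 ratio of knockout to wild type went from 0.17 to 0.40 for the first chromosome 6 cluster, from -0.078 to 0.33 for the second, from -0.11 to 0.24 for the chromosome 1 cluster and from 0.10 to 0.38 for all 64 loci. With the median of all loci also set to 0 these values were 0.33, 0.26, 0.17 and 0.30. The chromosome 1 cluster went to 0.072 without its highest locus, to 0.019 with the locus at the window edge, and to -0.25 with single-transcript loci only. The median log2 ratio over member loci was 0.43 in the tracking table against 0.038, and 0.0099 to 0.10 under the other alternatives. Of 51 tested members, called ones numbered 0 at q under 0.05 or 0.01 and 1 at q under 0.1. They numbered 5 at an unadjusted p under 0.05 and 1 by intervals that did not overlap. Of all 85852 tested transcripts, 0.255% had a q under 0.05, 2.38% an unadjusted p under 0.05 and 0.632% intervals that did not overlap. The shares at q under 0.1 and 0.01 are not given here, so the count at q under 0.1 cannot be set against all transcripts. At a minimum of 5 FPKM, 18 loci were counted in knockout and 19 in wild type cells, against 32 each at 1 FPKM. The cause of the difference between the tables was not tested. The tracking-table scaling, window edge, single-transcript and interval alternatives, and the tracking table for counts of loci, were chosen after seeing the data. The unknown depth limits all values near 0.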
